A study of Mus musculus with 6 samples.

Results

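The V-ATPase is the proton pump that acidifies lysosomes and, in osteoclasts, the space between the cell and the bone it resorbs. Its V0 sector sits in the membrane and carries the protons, and its V1 sector sits on the cytosolic side and hydrolyses ATP. The a subunit of V0 forms the proton path and comes in isoforms that decide which membrane the pump serves; a3, encoded by Tcirg1, is the isoform of the osteoclast's resorbing surface, and its loss causes osteopetrosis in mice. The d subunit couples the rotor to V1 and also comes in isoforms, d1 in most cells and d2 enriched in osteoclasts, where it is also known for its part in the fusion of precursors.

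This account covers 10 genes: the V0 a isoforms Atp6v0a1, Atp6v0a2 and Tcirg1, the rotor subunits Atp6v0b and Atp6v0c, the d isoforms Atp6v0d1 and Atp6v0d2, the small subunit Atp6v0e and the accessory subunits Atp6ap1 and Atp6ap2. Members were taken by name, as every probe set for which the platform annotation gave a single gene symbol and that symbol was one of the 10. They came to 19 probe sets for 9 genes, out of 34945 single-symbol probe sets for 18193 genes. No probe set was paired with Atp6v0c alone, so the subunit that makes up most of the rotor ring was not analysed here.

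The cells were bone marrow macrophages of knockin mutant (KI) and wild type (WT) mice, both of strain C57BL/6, with 3 arrays a genotype. Both groups had received M-CSF (44 ng/ml) and RANKL (100 ng/ml) for 24 hours, so neither is an unstimulated control. M-CSF keeps the precursors alive, and RANKL starts their conversion to osteoclasts through its receptor RANK. The series title names the IVVY motif of RANK, so the question is which genes require that motif; the changed residues are not described in the labels. Nothing in the labels says whether the 3 samples of a genotype came from separate mice or cultures, so the p-values measure the spread between these samples, which may be technical.

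Affymetrix arrays read the 3' end of transcripts, and each probe set gave 1 intensity per array on a linear scale. Array medians were 83 to 84.8 on KI arrays and 83.4 to 84.4 on WT arrays and precision is limited by there being 3 arrays a genotype. Differences below are KI minus WT on the log2 scale, from limma fitted to 22518 probe sets, with Benjamini-Hochberg adjustment over all of them and a threshold of 0.05. The genotypes differed widely: 44.9% of the tested probe sets passed, 19.3% higher and 25.6% lower in KI. Within the genotypes, Pearson r across probe sets was 0.988 to 0.996 for KI pairs and 0.982 to 0.997 for WT pairs, and WT 1 was the WT array least like the other two. The ratio of 3' to 5' probe sets of Gapdh was 0.927 to 0.943 on KI arrays and 0.932 to 0.972 on WT arrays.

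The macrophage markers were present, and all 8 were higher in KI, with a summed intensity of 144959 to 152601 on KI arrays and 91977 to 114702 on WT arrays. Of 7 osteoclast markers tested, 5 were lower in KI, and the summed intensity of the 8 on the array was 25661 to 28291 on KI arrays and 57165 to 64408 on WT arrays. Markers of neutrophils and myeloid progenitors moved as well: 4 of 6 were higher in KI, with sums of 14414 to 28763 on KI arrays and 10269 to 12732 on WT arrays. For comparison, 20.9% of all genes taken by their brightest probe set were higher and 27.0% lower in KI. Of the 3 stromal markers tested, 0 passed and 0 had an unadjusted limma p under 0.05 (sums 2183 to 8499 on KI arrays and 2036 to 6862 on WT arrays). Of the B cell markers and of the T and NK cell markers 1 each was bright enough to test, and 0 passed, with 0 also by the unadjusted p. The erythroid and mast cell markers all lay below the intensity filter. The sums of these 4 lists did not exceed 293 on any KI array or 344 on any WT array. Because these are bulk cultures, fewer cells of a type and less RNA per cell cannot be told apart, and the part of these markers in the results below was not tested.

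Among the V0 genes the isoforms moved apart: Atp6v0a1 was 2.95-fold higher in KI and Atp6v0d2 fell to 0.511 of its WT level, while Tcirg1 and Atp6v0a2 did not pass by their brightest probe sets. Of 18 member probe sets tested, 4 rose, 7 fell and 7 did not pass, so that 61.1% were called, where 44.9% of all tested probe sets were. The last probe set, 1 of the 4 of Atp6v0a1, lay below the intensity filter. Taking each gene by its brightest probe set, 3 of 9 rose, 3 fell and 3 did not pass; of all genes so represented, 47.9% were called, 20.9% higher and 27.0% lower in KI. The median difference was -0.12 over the member probe sets tested and -0.04 over all. KI and WT arrays did not overlap for 12 of the 18, and for 60.9% of all tested probe sets. The directions are those of the deposited values. When the arrays were instead scaled to the hybridisation spike-ins, bacterial and phage transcripts added to the labelled sample, the median difference over the tested probe sets was -0.25 in place of -0.04. Then 2 member probe sets rose and 10 fell, while 2546 of all 22518 tested probe sets rose and 9011 fell. When the arrays were scaled to the older probe sets for these spike-ins, the median was -0.57. Of the member probe sets 1 rose and 12 fell, and of all tested 728 rose and 10586 fell. Without KI 1, KI 2, KI 3 or WT 3, 3 member probe sets fell in place of 7. Over all tested probe sets 3857 to 4835 fell in those fits, in place of 5756. With the number in each sample's description as a covariate, 3 member probe sets fell, and 3637 of all tested. That number is mostly higher for KI than for WT samples, so the covariate shares part of its variation with genotype.

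**Figure D1:**
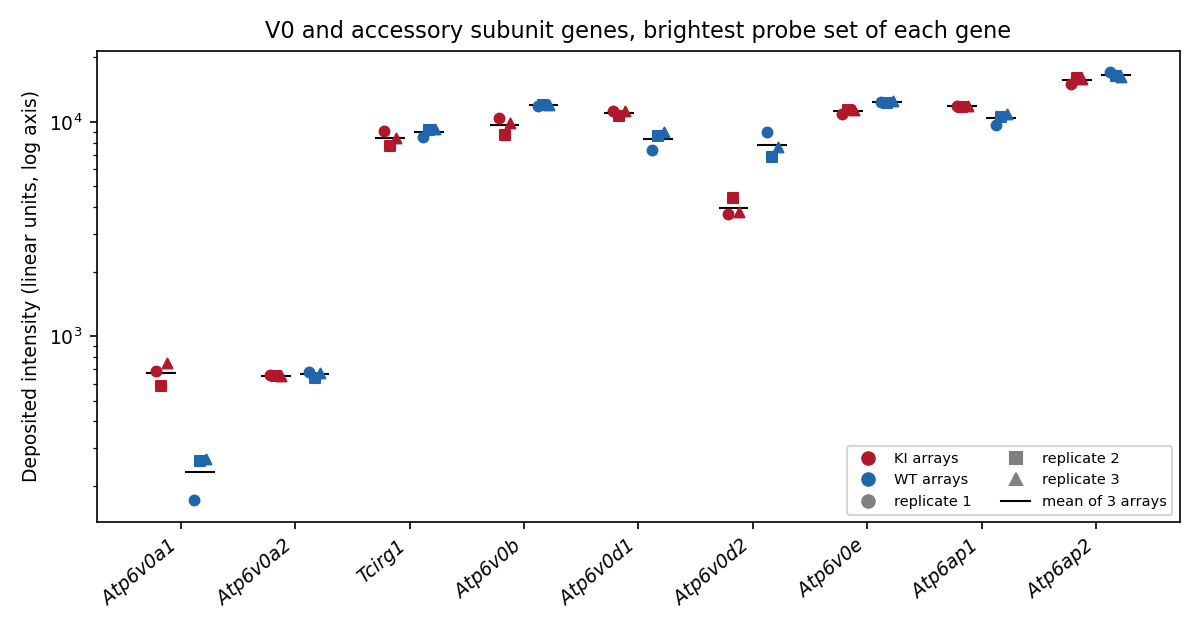
Deposited intensity (log axis) on each KI array (red) and WT array (blue) for the brightest probe set of each of the 9 measured genes; marker shapes give the replicate and black lines the mean of 3 arrays. The KI arrays of Atp6v0a1 lie at 588 to 747, above all WT arrays, and those of Atp6v0d2 at 3721 to 4394, below all WT arrays; heights of different probe sets are not comparable.

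Of the a isoforms, Atp6v0a1, found in most tissues and abundant in neurons, had the largest difference of the members measured. Its brightest probe set, 1417632_at, had intensities of 691, 588 and 747 on the KI arrays, against 171, 260 and 266 on the WT arrays. The genotypes did not overlap, and WT 1 was the lowest of the WT arrays. In log2 units the rise was 1.56 (SE 0.19, limma adjusted p = 0.0016), and 2.07% of tested probe sets had a larger absolute difference. Without WT 1 the rise was 1.35 (adjusted p = 0.00045), and under the older spike-in scaling it was 1.03 (adjusted p = 0.0010).

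The other probe sets of Atp6v0a1 gave smaller values. 1425227_a_at had 260, 260 and 258 on the KI arrays, against 129, 122 and 109 on the WT arrays, a rise of 1.11 (SE 0.09, adjusted p = 0.00050) that did not pass under the older spike-in scaling (0.58, adjusted p = 0.056). 1459924_at stayed between 93.4 and 95.5 on the KI arrays and between 92 and 93.9 on the WT arrays, a difference of 0.03 (95% confidence interval -0.14 to 0.20). The probe set below the filter, 1460650_at, had 52.0 to 52.2 on the KI arrays and 36.8 to 44.9 on the WT arrays. In a fit without the filter its difference was 0.31 (adjusted p = 0.075). The 2 brighter probe sets thus rose, by different amounts, and the dimmer ones did not pass. Which parts of the transcript each covers was not analysed here.

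Tcirg1, the a3 isoform whose product the resorbing surface needs, was bright in both genotypes. Its only probe set had intensities of 9024, 7741 and 8398 on the KI arrays, against 8487, 9158 and 9247 on the WT arrays, and the genotypes overlapped. The difference was -0.10 (SE 0.07, adjusted p = 0.29), with a 95% confidence interval of -0.26 to 0.07. It passed under spike-in scaling (-0.30, adjusted p = 0.0097) and the older spike-in scaling (-0.63, adjusted p = 0.028), and without replicate 1 of both genotypes (-0.19, adjusted p = 0.012). It shrank to -0.04 without KI 2 (adjusted p = 0.67), to -0.06 with quantile normalization (0.54) and to -0.02 with the description number as a covariate (0.89).

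Atp6v0a2, the isoform known for its place in the Golgi and endosomes, was nearly level by its brightest probe set. 1434791_at had 657, 651 and 652 on the KI arrays, against 684, 638 and 671 on the WT arrays, a difference of -0.02 (95% confidence interval -0.20 to 0.15, adjusted p = 0.82). Its sign turned to 0.02 with quantile normalization. A dimmer probe set, 1449870_a_at, had 285, 300 and 304 on the KI arrays, against 452, 327 and 383 on the WT arrays. It fell by 0.38 (SE 0.13, adjusted p = 0.047), but the call ended without KI 1, KI 2, KI 3, WT 1 or WT 3 (adjusted p = 0.078 to 0.12, the difference -0.26 without WT 1). It also ended without the filter (adjusted p = 0.10), with the description number as a covariate (0.14) and without replicate 1 of both genotypes (0.097). The replicate number as a block ended it too (adjusted p = 0.10). The remaining one, 1424513_at, differed by -0.13 (adjusted p = 0.37) and passed under the older spike-in scaling (-0.66, adjusted p = 0.030).

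**Figure D2:**
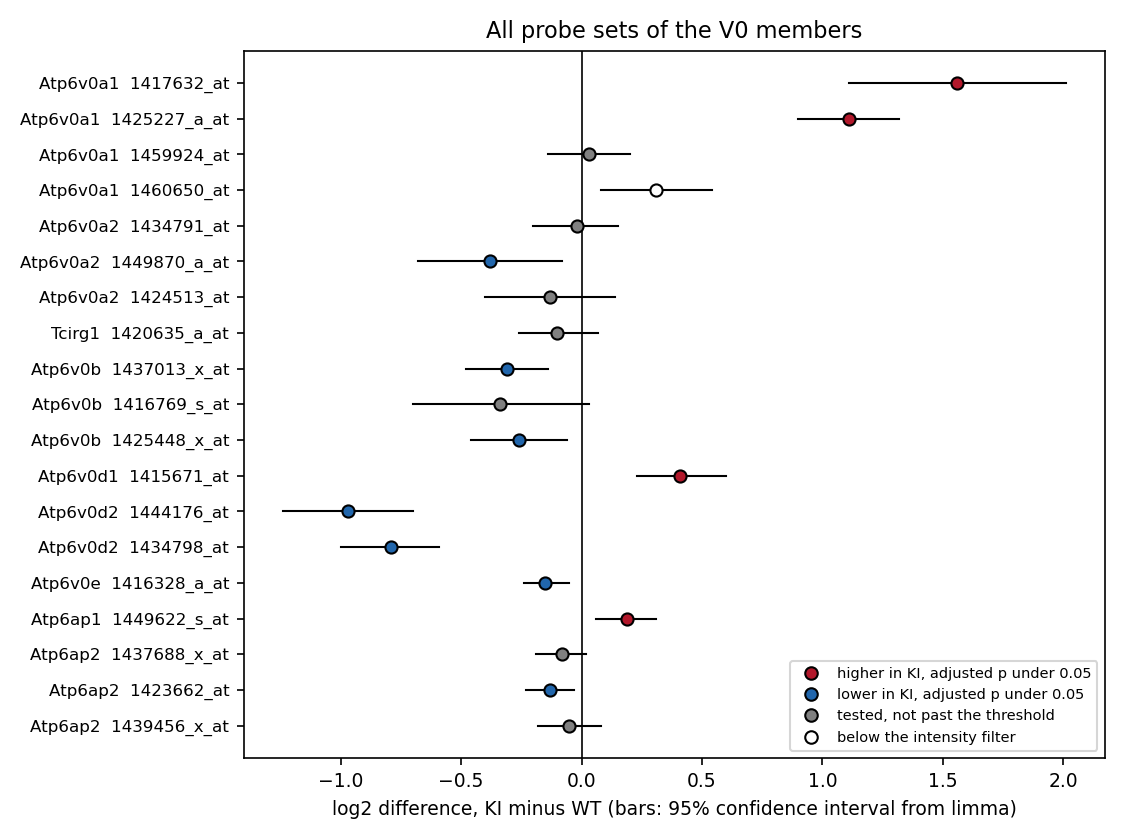
Log2 difference, KI minus WT, for all 19 member probe sets, with 95% confidence intervals from limma; red and blue points passed the threshold upward and downward, grey points did not, and the open point (1460650_at) lay below the intensity filter and comes from the fit without it. Differences run from -0.97 (Atp6v0d2) to 1.56 (Atp6v0a1). Those of Atp6v0d1, Atp6ap1 and 1459924_at of Atp6v0a1 turn negative under the older spike-in scaling.

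The d isoforms went opposite ways in the deposited values. Atp6v0d2, the osteoclast-enriched isoform, had 3721, 4394 and 3798 on the KI arrays by its brightest probe set, 1444176_at, against 8927, 6838 and 7625 on the WT arrays. The highest KI array lay below the lowest WT array, and WT 1 was the highest of all. The gene fell by 0.97 (SE 0.11, adjusted p = 0.0014). Its other probe set, 1434798_at, had 3628, 4109 and 3856 on the KI arrays, against 7266, 6062 and 6815 on the WT arrays. That is a fall of 0.79 (SE 0.09, adjusted p = 0.0011), close to the value of the brightest. Both falls passed in all 18 alternative fits, with differences of -1.50 to -0.82 for 1444176_at and of -1.32 to -0.69 for 1434798_at.

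Atp6v0d1, the isoform of most cell types, had 11245, 10690 and 11233 on the KI arrays, against 7386, 8624 and 8944 on the WT arrays. Every KI array lay above every WT array, and WT 1 was again the farthest out. The gene rose by 0.41 (SE 0.08, adjusted p = 0.0063), which is 1.33-fold, but the difference was 0.21 (adjusted p = 0.052) under spike-in scaling and turned to -0.12 (adjusted p = 0.69) under the older spike-in scaling.

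Isoforms of the same subunit were set against each other within each array, where any scaling factor of the array cancels. The log2 difference Atp6v0d2 minus Atp6v0d1 was -1.60, -1.28 and -1.56 on the KI arrays, against 0.27, -0.33 and -0.23 on the WT arrays. It averaged -1.48 ± 0.17 in KI and -0.10 ± 0.33 in WT (SD, n = 3 each). The ratio of the d2 to the d1 signal was therefore 0.383 of its WT value in KI (difference -1.38, two-sided exact permutation p = 0.1, the smallest that 3 against 3 arrays allow). The difference held its sign when any 1 array was left out (-1.50 to -1.20) and was -1.14 without replicate 1 of both genotypes.

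Atp6v0a1 minus Tcirg1 was -3.71, -3.72 and -3.49 on the KI arrays, against -5.63, -5.14 and -5.12 on the WT arrays, without overlap. Its means were -3.64 ± 0.13 in KI and -5.30 ± 0.29 in WT (SD, n = 3 each). The ratio of a1 to a3 signal was thus 3.15-fold higher in KI (difference 1.66, exact permutation p = 0.1). With the mean of all probe sets of a gene in place of the brightest, that difference was 0.85. Atp6v0a1 minus Atp6v0a2 averaged 0.04 ± 0.17 in KI and -1.54 ± 0.39 in WT (SD, n = 3 each), without overlap. The genotypes differed by 1.58 (exact permutation p = 0.1), or 0.93 with the mean of the probe sets. Atp6v0a2 minus Tcirg1 averaged -3.68 ± 0.11 in KI and -3.75 ± 0.11 in WT (SD, n = 3 each). These values overlapped (difference 0.07, exact permutation p = 0.4), and with the mean of the probe sets the sign turned (-0.08). Adjusted over the 4 pairs, p was 0.133 for the 3 pairs without overlap and 0.4 for the last. The design cannot reach the threshold for these pairs.

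**Figure D3:**
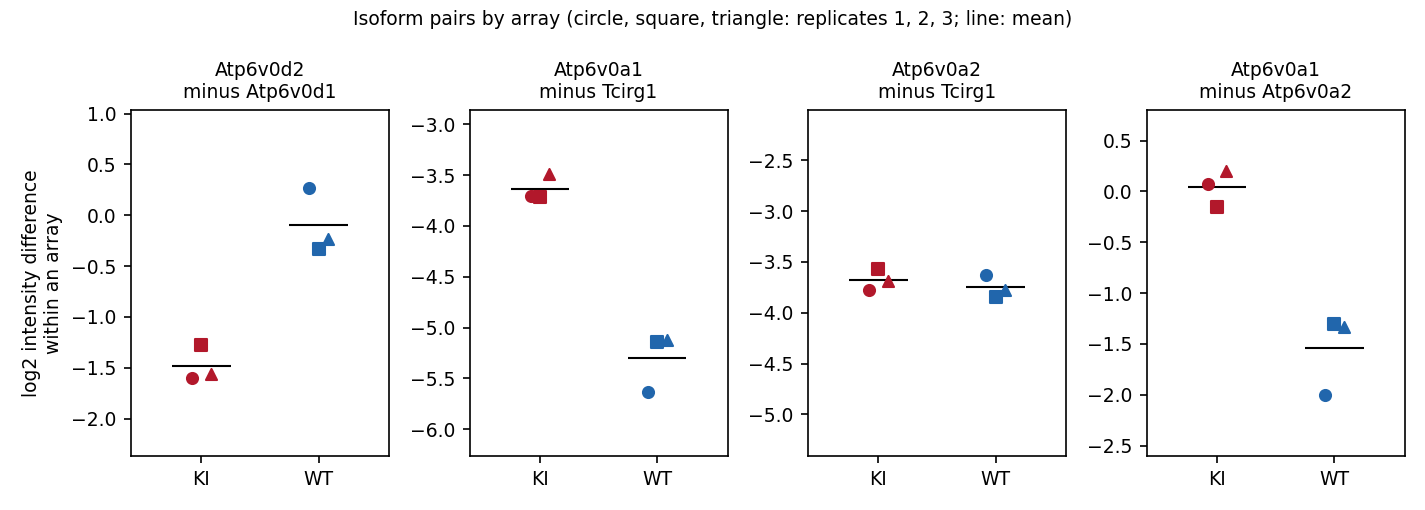
Log2 difference between the brightest probe sets of 2 isoforms within each array, for KI (red, left) and WT (blue, right) arrays; shapes mark replicates, lines the mean of 3 arrays, and every panel spans the same height of the log2 axis. The d2 minus d1 values lie lower in KI and both a1 pairs lie higher in KI, without overlap, while the a2 minus a3 (Tcirg1) values overlap; the level on an axis also reflects the probes and is not compared between panels.

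The rotor subunit Atp6v0b and the small subunit Atp6v0e were lower in KI. Atp6v0b, the proteolipid c'' subunit of the rotor ring, had 10487, 8694 and 9913 on the KI arrays by its brightest probe set, 1437013_x_at, against 11832, 12013 and 12051 on the WT arrays. It fell by 0.31 (SE 0.07, adjusted p = 0.014), with no overlap, a call that ended with the description number as a covariate (-0.22, adjusted p = 0.12). 1425448_x_at had 957, 896 and 962 on the KI arrays, against 1047, 1190 and 1137 on the WT arrays, and fell by 0.26 (adjusted p = 0.039). That call ended without KI 1, KI 2, KI 3, WT 2 or WT 3 (adjusted p = 0.074 to 0.12), with quantile normalization (0.12) and with the covariate (0.17). The replicate number as a block ended it too (adjusted p = 0.13). 1416769_s_at had 3168, 2663 and 3162 on the KI arrays, against 2991, 4146 and 4322 on the WT arrays. WT 1 lay among the KI values there, and the difference of -0.34 did not pass (adjusted p = 0.11). It did without WT 1 (-0.50, adjusted p = 0.0060), without replicate 1 of both genotypes (-0.54, adjusted p = 0.00080), and under the spike-in (-0.54, adjusted p = 0.0099) and older spike-in (-0.87, adjusted p = 0.0044) scalings. The names of all 3 probe sets mark them as able to match several transcripts, so their share of signal from other transcripts is uncertain.

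Atp6v0e, a small membrane subunit, had 10892, 11322 and 11390 on the KI arrays, against 12455, 12227 and 12521 on the WT arrays. The genotypes did not overlap, yet the difference was small, -0.15 (SE 0.04, adjusted p = 0.024), or 0.903-fold. The call ended without KI 1, KI 2, KI 3, WT 2 or WT 3 (adjusted p = 0.052 to 0.073) and without an intensity trend in the variance prior (0.10). It also ended with the replicate number as a block (adjusted p = 0.093).

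The promoters of these subunits are shown because MiT/TFE transcription factors, which switch on lysosomal and V-ATPase genes, bind the E-box CACGTG, and several members encode lysosomal proteins. RefSeq promoter windows (GRCm38.p6) of 300 bases, most of them before the start, were matched by symbol for 8 of the 10 genes, in 12 windows; Atp6v0a2 and Atp6v0d2 were not among them. CACGTG, which reads the same on both strands, was in windows of 3 members, Atp6v0b, Atp6v0d1 and Atp6v0e, and in 7.15% of all 32851 windows of 300 bases. The AP-1 motif TGANTCA, searched on both strands and not overlapping CACGTG in these windows, was found in 1 member, Atp6v0a1, and in 7.81% of all windows. The 3 windows with CACGTG are given 5' to 3' on the gene's strand from 80 bases before the start to 20 after, with the motif in capitals.
Atp6v0b (chr4:117887310-117887409, minus strand): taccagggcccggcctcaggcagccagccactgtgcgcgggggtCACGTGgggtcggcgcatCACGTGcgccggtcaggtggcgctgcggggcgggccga
Atp6v0d1 (chr8:105566045-105566144, minus strand): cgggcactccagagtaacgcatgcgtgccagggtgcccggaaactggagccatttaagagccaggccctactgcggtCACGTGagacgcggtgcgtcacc
Atp6v0e (chr17:26676316-26676415, plus strand): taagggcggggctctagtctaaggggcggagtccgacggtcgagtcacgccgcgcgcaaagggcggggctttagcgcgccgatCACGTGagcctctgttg
The motif began at positions -36 and -18 from the start in Atp6v0b, at -3 in Atp6v0d1 and at 4 in Atp6v0e. Their directions differed: Atp6v0b and Atp6v0e were lower in KI (-0.31 and -0.15), while Atp6v0d1 was higher (0.41) except under the older spike-in scaling (-0.12). Whether any factor occupies these letters was not measured.

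Differences of the accessory subunits were small. Atp6ap1 encodes a glycoprotein that helps assemble V0. Its only probe set, 1449622_s_at, is also marked as able to match several transcripts. It had 11864, 11737 and 11825 on the KI arrays, against 9724, 10560 and 10869 on the WT arrays. The KI arrays lay close together and above all WT arrays, with a rise of 0.19 (SE 0.05, adjusted p = 0.026) that turned to -0.02 (adjusted p = 0.84) under spike-in scaling and to -0.34 (adjusted p = 0.21) under the older spike-in scaling. The call also ended without KI 1, KI 2, KI 3 or WT 2 (adjusted p = 0.054 to 0.084), without the filter (0.058), without a trend in the variance prior (0.073) and with the covariate (0.13). The replicate number as a block ended it too (adjusted p = 0.078).

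Atp6ap2, also known as the prorenin receptor, had 15014, 15952 and 15867 on the KI arrays by its brightest probe set, 1437688_x_at, against 17073, 16413 and 16136 on the WT arrays. The groups did not overlap, but the difference of -0.08 did not pass (adjusted p = 0.15) except under spike-in scaling (-0.29, adjusted p = 0.033) and the older spike-in scaling (-0.61, adjusted p = 0.024). 1423662_at fell by 0.13 (SE 0.04, adjusted p = 0.046), and that call ended without KI 1, KI 2, KI 3, WT 1 or WT 3 (adjusted p = 0.063 to 0.14) and in 13 of the 18 alternative fits in all. 1439456_x_at differed by -0.05 (adjusted p = 0.51) and passed under the older spike-in scaling (-0.58, adjusted p = 0.037).

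**Figure D4:**
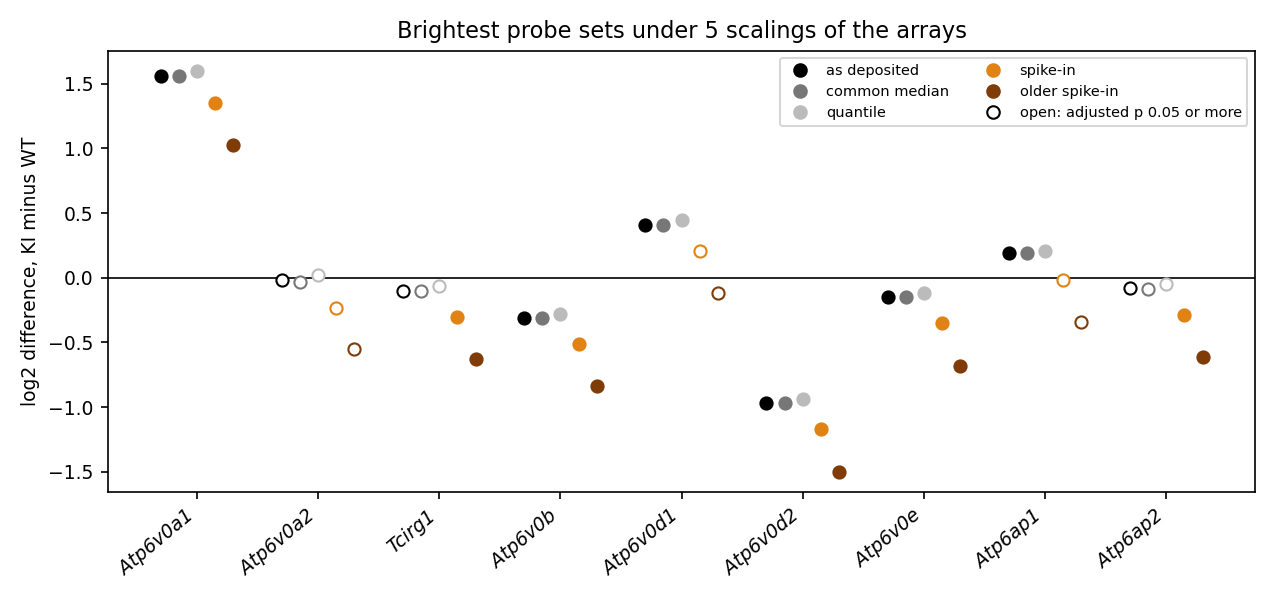
Log2 difference, KI minus WT, of each gene's brightest probe set with the arrays as deposited, scaled to a common median, quantile normalized, or scaled to either set of spike-in probe sets; filled points passed the threshold and open ones did not. Atp6v0a1 stays above 0 (1.03 to 1.60) and Atp6v0d2 below (-1.50 to -0.94) under all 5, while Atp6v0d1, Atp6ap1 and Atp6v0a2 change sign.

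The V1 sector hydrolyses ATP. Of 13 V1 genes, 12 had a probe set and 10 were tested by their brightest one; 0 rose, 2 fell and 8 did not pass, with a median difference of -0.03, the same as over the brightest probe sets of all genes tested. Of all genes taken this way, 20.9% were higher and 27.0% lower in KI. By limma's unadjusted p under 0.05 also 0 were higher, while 1 V1 gene rose with the description number as a covariate. Atp6v1d, a subunit of the central stalk, fell by 0.23 (SE 0.05, adjusted p = 0.012), to 8029 ± 276 in KI against 9389 ± 334 in WT (SD, n = 3 each). Its other 2 probe sets fell by 0.26 and 0.41, and the call ended with the covariate (adjusted p = 0.081). Atp6v1b2, the B subunit isoform of macrophages and osteoclasts, fell by 0.14 (adjusted p = 0.046), a call that ended when any of the 6 arrays was left out (adjusted p = 0.059 to 0.15) and in 13 of 19 alternative fits in all; a dimmer probe set of it fell by 0.29 (adjusted p = 0.0073). The catalytic subunit gene Atp6v1a differed by 0.06 (adjusted p = 0.32). The V1 difference farthest from 0 by a brightest probe set was that of Atp6v1g2, 0.37 with a 95% confidence interval of -0.06 to 0.80, which did not pass (adjusted p = 0.14). Under either spike-in scaling 4 V1 genes fell and 0 rose. Of all 22518 tested probe sets, 9011 were lower and 2546 higher in KI under spike-in scaling. Under the older spike-in scaling 10586 were lower and 728 higher. Of the V0 genes outside the 10, Atp6v0a4 and Atp6v0e2 lay below the filter, with mean intensities of 27.4 and 41.4 in KI, against 26.4 and 42.2 in WT.

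Among genes that build or rejoin the pump, Vma21, Tmem199 and Ccdc115, endoplasmic reticulum factors that assemble V0, fell, while Wdr7 and Dmxl2, of the complex that joins V1 to V0, and Ncoa7, a TLDc protein that binds the pump, rose as deposited; under the older spike-in scaling those rises turned to -0.28, -0.23 and -0.02. Of 10 such genes, 3 fell, 3 rose and 4 did not pass, with a median difference of 0.05; with 27.0% of all genes lower and 20.9% higher, these counts are near the background. All 4 probe sets of Vma21 fell, by 0.40, 0.50, 0.81 and 0.84. Its brightest had 2067, 2213 and 2163 on the KI arrays, against 2642, 2753 and 3100 on the WT arrays (SE 0.08, adjusted p = 0.0087). Tmem199 had 1064, 1148 and 1138 on the KI arrays, against 1920, 1662 and 1847 on the WT arrays, a fall of 0.69 (SE 0.08, adjusted p = 0.0016). These 2 falls passed in all alternative fits that measured them. The only probe set of Tmem199, 1433629_s_at, is marked as able to match several transcripts and was left out of the fit without such probe sets. Ccdc115 fell by 0.26 (adjusted p = 0.030). Its call was lost without KI 1, KI 2, KI 3, WT 2 or WT 3 (adjusted p = 0.054 to 0.085) and in 7 of 19 alternative fits in all.

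The calls for the rises in this group were lost under some scalings and often when 1 array was left out. With 1 array left out, the differences were 0.21 to 0.28 for Wdr7, 0.24 to 0.38 for Dmxl2 and 0.39 to 0.60 for Ncoa7. Calls over all tested probe sets fell as well in those fits, to between 6793 and 9335 from 10101. Wdr7 rose by 0.25 (adjusted p = 0.024), Dmxl2 by 0.30 (adjusted p = 0.039) and Ncoa7 by 0.51 (adjusted p = 0.019), each with the reversal given above. Spike-in scaling ended the calls for Wdr7 (0.04) and Dmxl2 (0.09). The call for Wdr7 also ended without KI 1, KI 2, KI 3, WT 2 or WT 3 (adjusted p = 0.057 to 0.076) and that for Dmxl2 without KI 1, KI 2, WT 1, WT 2 or WT 3 (adjusted p = 0.068 to 0.10). That for Ncoa7 ended without KI 1 (adjusted p = 0.060), without KI 3 (0.051), without the filter (0.056) and with the covariate (0.056). Of the 3 rises, 0 passed without KI 1, and 1 passed without KI 2, KI 3 or WT 2. Likewise 0 passed under the older spike-in scaling or with the replicate number as a block (adjusted p = 0.077 to 0.11 with the block).

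Of 6 partners of the pump in acid secretion, 2 were higher, 2 lower and 2 did not pass, with a median difference of -0.09; these counts too are near the background of 20.9% higher and 27.0% lower. Car2, the carbonic anhydrase that supplies protons to the osteoclast's pump, had 606, 667 and 710 on the KI arrays, against 3729, 2512 and 2832 on the WT arrays. It fell by 2.18 (SE 0.15, adjusted p = 0.00033), the largest difference of any gene described here. Slc4a2, the bicarbonate-chloride exchanger, had 1421, 1599 and 1597 on the KI arrays, against 2138, 2061 and 2152 on the WT arrays, a fall of 0.46 (SE 0.08, adjusted p = 0.0043). Plekhm1, a lysosome positioning adaptor, had 4996, 4145 and 4416 on the KI arrays, against 2117, 2307 and 2427 on the WT arrays. It rose by 0.98 (SE 0.09, adjusted p = 0.00079), or by 0.45 without passing under the older spike-in scaling (adjusted p = 0.13); its dimmer probe set differed by -0.02. Ostm1, the partner of the chloride exchanger ClC-7, rose by 0.42 (SE 0.06, adjusted p = 0.0028), with 0.22 (adjusted p = 0.065) under spike-in scaling and -0.11 under the older spike-in scaling. Clcn7 itself differed by -0.17 (adjusted p = 0.17), and Snx10, a sorting nexin needed for resorption, by -0.0013 (adjusted p = 0.99).

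Of the 4 MiT/TFE factors, 1 rose and 3 did not pass. With 20.9% of all genes higher and 27.0% lower, this count is near the background. Tfe3 had 3376, 2981 and 3207 on the KI arrays, against 1872, 2305 and 2506 on the WT arrays. It rose by 0.53 (SE 0.12, adjusted p = 0.012), a difference of -0.0042 under the older spike-in scaling, and the call ended with the covariate (adjusted p = 0.062). Tfeb, Mitf and Tfec differed by 0.31 (adjusted p = 0.13), 0.06 (adjusted p = 0.70) and 0.12 (adjusted p = 0.38). Over all 30 genes tested in these lists, 6 rose and 7 fell (47.9% of all genes taken this way were called), and 3 rose without KI 1. Over all tested probe sets, 3236 were higher without KI 1, in place of 4345.

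**Figure D5:**
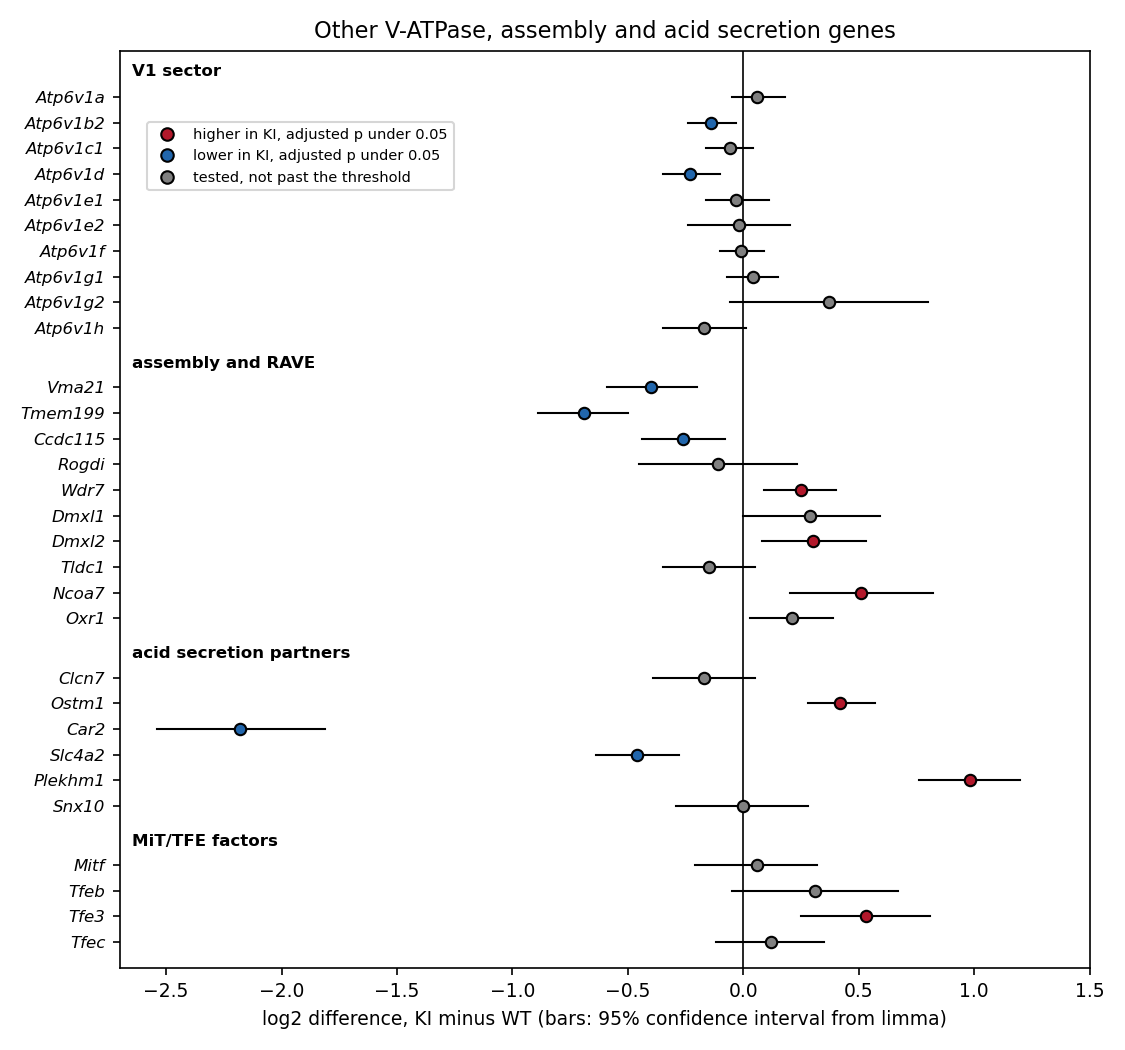
Log2 difference, KI minus WT, of the brightest tested probe set of the V1, assembly, acid secretion and MiT/TFE genes, with 95% confidence intervals from limma; red and blue points passed the threshold upward and downward. Most V1 genes lie near 0, Car2 is lowest (-2.18) and Plekhm1 highest (0.98); the rises of Wdr7, Dmxl2, Ncoa7, Ostm1 and Tfe3 turn negative under the older spike-in scaling.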

How the data were processed

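Biotin-labelled RNA of 3 KI and 3 WT samples was hybridised to Affymetrix mouse arrays, per the labels' protocols. The deposited values are 1 linear intensity for each probe set on each array. Affymetrix Expression Console made them, per the submitters' processing notes. The sources used here give neither its version nor the summarisation and normalization. Array medians were nearly equal, so the intensities were used without further scaling.

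Of 45101 probe sets, 64 controls were left out. Intensities below 16 were set to 16 before taking log2 (5.27 to 5.62% of values per array). The 22518 probe sets whose mean lay above the median were fitted with limma 3.58.1 in R 4.3.3 (lmFit, eBayes with an intensity trend), with Benjamini-Hochberg adjustment. The fit was also run on simulated arrays with independent noise, where a smaller share of the small changes than of the large ones passed. That order follows from the simulation and does not bear on the spread of the real arrays.

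Genes were named from the platform annotation, which gave 34945 probe sets 1 symbol, 932 several and 9160 none here. Tldc1 was matched through its gene identifier to a probe set named Meak7; Atp6v0c and Atp6v1g3 had none paired with them alone. In lists, the probe set with the highest mean stands for its gene. Isoform pairs were tested by exact permutation of arrays (two-sided), with adjustment over the 4 pairs.

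All members are named with each probe set, and every gene of the other lists that passed. Atp6v1a, Atp6v1g2, Clcn7, Snx10, Tfeb, Mitf, Tfec, Atp6v0a4 and Atp6v0e2, which did not pass or lay below the filter, were named after their values were seen. Members and lists were chosen with earlier results of these data known. Alternatives were other scalings (quantile, common median, and 2 sets of spike-in probe sets), filters, log offsets, variance priors and covariates. Others left out arrays or probe sets that can match several transcripts (names ending in _x_at, _s_at or _a_at), or averaged a gene's probe sets.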

Additional observations from a re-analysis of the deposited data

How the results depend on the processing

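With spike-in scaling, 2546 probe sets were higher and 9011 lower in KI (4345 and 5756 as deposited), with 2 member probe sets higher, and 3 list genes higher and 11 lower. With the older spike-ins, 728 were higher and 10586 lower, with 1 member probe set higher and 12 lower, and 0 list genes higher and 12 lower. Older spike-in scaling turned the sign of 1459924_at of Atp6v0a1 (-0.50), Atp6v0d1 (-0.12), Atp6ap1 (-0.34), Wdr7 (-0.28), Dmxl2 (-0.23), Ncoa7 (-0.02), Ostm1 (-0.11) and Tfe3 (-0.0042). Spike-in scaling turned 1459924_at (-0.18) and Atp6ap1 (-0.02), and quantile normalization turned 1434791_at of Atp6v0a2 (0.02). The description number as a covariate gave 6481 calls in place of 10101 (2844 higher, 3637 lower), with 3 member probe sets and 4 list genes lower. Without probe sets whose names mark them as able to match several transcripts, 16332 were left to test in place of 22518. Of these 7013 passed, 3193 higher and 3820 lower in KI. Many member probe sets carry such names and dropped out of that fit. Of the members left in it, 2 probe sets rose and 2 fell. With the mean of a gene's probe sets, Atp6v0a1 minus Tcirg1 was 0.85, Atp6v0a1 minus Atp6v0a2 was 0.93 and Atp6v0a2 minus Tcirg1 was -0.08; the last was 0.19 without replicate 1 of both genotypes. Leaving out 1 array gave 6793 to 9335 calls (2936 to 4180 higher, 3857 to 5155 lower). It left 3 to 4 member probe sets higher and 3 to 6 lower, and 3 to 6 list genes higher and 5 to 6 lower; Atp6v0d2 minus Atp6v0d1 ran from -1.50 to -1.20, Atp6v0a1 minus Tcirg1 from 1.49 to 1.75, Atp6v0a1 minus Atp6v0a2 from 1.36 to 1.71 and Atp6v0a2 minus Tcirg1 from 0.02 to 0.13. Causes of these changes were not tested. The brightest probe set of Atp6v0a1 and both of Atp6v0d2 kept their direction and passed in all 18 alternatives run on them.

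Replicate numbers are shared by the genotypes, but the labels tie them to no animal or day. Deviations of same-numbered samples correlated at -0.40, -0.29 and -0.30, and 0 of the 6 samples correlated best with their own number. With that number as a replicate block, 6184 probe sets passed (2693 higher, 3491 lower), 3 member probe sets fell in place of 7, and 3 list genes rose and 4 fell in place of 6 and 7. The table holds no detection calls, so no limit of detection was set for dim probe sets.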

Other observations

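The spike-in probe sets behind the scaling alternatives were higher on every KI array than on every WT array in the deposited values. Over 9 probe sets their mean log2 intensity was 11.51, 11.35 and 11.44 on the KI arrays, against 11.14, 11.28 and 11.26 on the WT arrays. Over the 9 older probe sets it was 11.09, 10.93 and 11.04 on the KI arrays, against 10.40, 10.84 and 10.24 on the WT arrays. A dimmer probe set of Clcn7, 1425821_at, singled out after its values were seen, averaged 228 ± 5.01 in KI and 297 ± 39.6 in WT (SD, n = 3 each). It fell by 0.37 (limma adjusted p = 0.035), while the brightest probe set of Clcn7 did not pass (-0.17, adjusted p = 0.17).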
